A study of Mus musculus with 6 samples.

Results

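The mitochondrial carriers of the Slc25a gene family were examined in organoids of the mouse intestine, self-organising cultures of its epithelium. Members were the rows of the count table whose symbol was Slc25a followed by a number, with 2 such symbols left out. This gave 45 of the 52249 genes in the table. The comparison asked how these genes differed when IGF2BP3, an RNA-binding protein, was overexpressed on top of a knockout of Apc, the brake on WNT signalling. Apc-knockout organoids gave 3 libraries, and organoids with the genotype Apc-knockout plus IGF2BP3 overexpression gave another 3, called OE-labelled here. Both groups were labelled as carrying the Apc knockout, and the labels give no mouse strain, age, promoter, construct or clone. They also do not say whether the 3 libraries of a group came from separate cultures, so the p-values measure only the spread between these libraries.

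SLC25 proteins sit mostly in the inner mitochondrial membrane, which is closed to most charged metabolites, and exchange one substrate for another across it. They bring ADP and phosphate to ATP synthase, carry citrate, malate and oxoglutarate between the matrix and the cytosol, and supply the matrix with amino acids, cofactors, glutathione and iron. In the intestinal epithelium they link fuel oxidation in the matrix to biosynthesis in the cytosol.

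Libraries held 2180116 to 2228078 counts in Apc-knockout and 2310236 to 2519917 counts in OE-labelled samples. Levels are given as CPM, counts scaled to a common library size, with TMM factors that correct for differences in library composition. The 3′ libraries count transcript ends, so a CPM does not scale with transcript length. The mouse Igf2bp3 gene had at most 1 count in any library; the labels do not say what the overexpression construct contains, so this count checks nothing about the label. Apc had 164 to 182 counts in Apc-knockout and 148 to 158 counts in OE-labelled libraries (log2 fold change -0.37, edgeR adjusted p = 0.0323); the labels do not give the deleted part, so these 3′ counts do not check the knockout. Library names run in a separate series for each group, so series and group cannot be told apart in any result below. Epithelial markers were present in every library (7 of the 8 listed genes tested, summed level 3948 to 4172 CPM in Apc-knockout and 5325 to 6025 CPM in OE-labelled libraries), whereas the 8 mesenchymal and endothelial markers summed to at most 3.28 CPM, with Col1a2, Col3a1 and Cdh5 at 0. The summed level of 17 secretory markers was 727 to 762 CPM in Apc-knockout and 1480 to 1691 CPM in OE-labelled libraries, that of 10 enterocyte markers 6.45 to 7.37 CPM and 1.18 to 2.11 CPM, that of 6 stem markers 372 to 388 CPM and 504 to 622 CPM, and that of 7 immune markers 41.3 to 51.6 CPM and 60.9 to 75.8 CPM, in the same order. Apob made up most of the enterocyte sum in Apc-knockout libraries (4.61 to 7.37 CPM) and Sox9 most of the stem sum in every library (333 to 581 CPM). Spink4 made up most of the secretory sum (469 to 494 CPM and 1010 to 1250 CPM) and Csf1r most of the immune sum (27.7 to 32.7 CPM and 44.0 to 55.5 CPM). Spink4, Tff3, Fcgbp and Mmp7 were higher at an edgeR adjusted p below 0.05. Muc2, Clca1 and Dclk1 did not pass, and 10 secretory markers were too low to test. Of the epithelial markers, Krt8, Krt18, Krt19 and Vil1 were higher at the same threshold, and Epcam, Cdh1 and Cdx2 did not pass. Krt18 moved most in CPM, from 1160 to 1200 CPM in Apc-knockout to 2090 to 2440 CPM in OE-labelled libraries. Cdx1, Lyz1, Defa17, Defa24, Ang4, Chga, Neurod1, Alpi, Fabp1, Apoa1, Apoa4, Sis, Cd3e, Cd79a and Lyz2 were at 0 in all 6 libraries. The part of these shifts in the carrier results was not tested, and in bulk RNA fewer cells of a type and less RNA per cell cannot be told apart.

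Of the 45 carriers, 32 passed the filter on low counts and were tested. Of these, 7 rose and 3 fell in OE-labelled libraries at an adjusted p below 0.05 (edgeR quasi-likelihood test, Benjamini-Hochberg over all 10687 genes tested). The share called was 31.2% of the tested carriers, where 29.2% of all tested genes were called; 16.5% of all tested genes were higher and 12.7% lower. The carriers as a family were thus called about as often as other genes, and what follows describes which of them changed. The median log2 fold change was 0.10 over the 32 carriers and 0.04 over all tested genes. For 14 of the 32 carriers (43.8%) every library of one group lay above every library of the other, and the same was true of 45.7% of all tested genes. Leaving out Apc-knockout replicate 1, 2 or 3 reduced the carriers called to 7, 7 and 4 (21.9%, 21.2% and 11.8% of those tested). Of all genes tested in the same fits, 17.3%, 16.8% and 15.9% were called. DESeq2 called 7 carriers (21.9%), of which 4 were higher, and 19.6% of all tested genes. All carriers together took 0.222% to 0.229% of the counts in Apc-knockout and 0.259% to 0.272% in OE-labelled libraries. Mitochondrial rRNAs took a smaller share of the counts in OE-labelled libraries (given below), which by itself raises the shares of other genes. Its part in the carrier share was not tested. With TMM scaling the carriers summed to 2267 to 2346 CPM in Apc-knockout and 2592 to 2692 CPM in OE-labelled libraries. Among the carriers the mean CPM moved most for Slc25a39 (195 to 372 CPM) and Slc25a3 (439 to 540 CPM, not called).

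**Figure D1:**
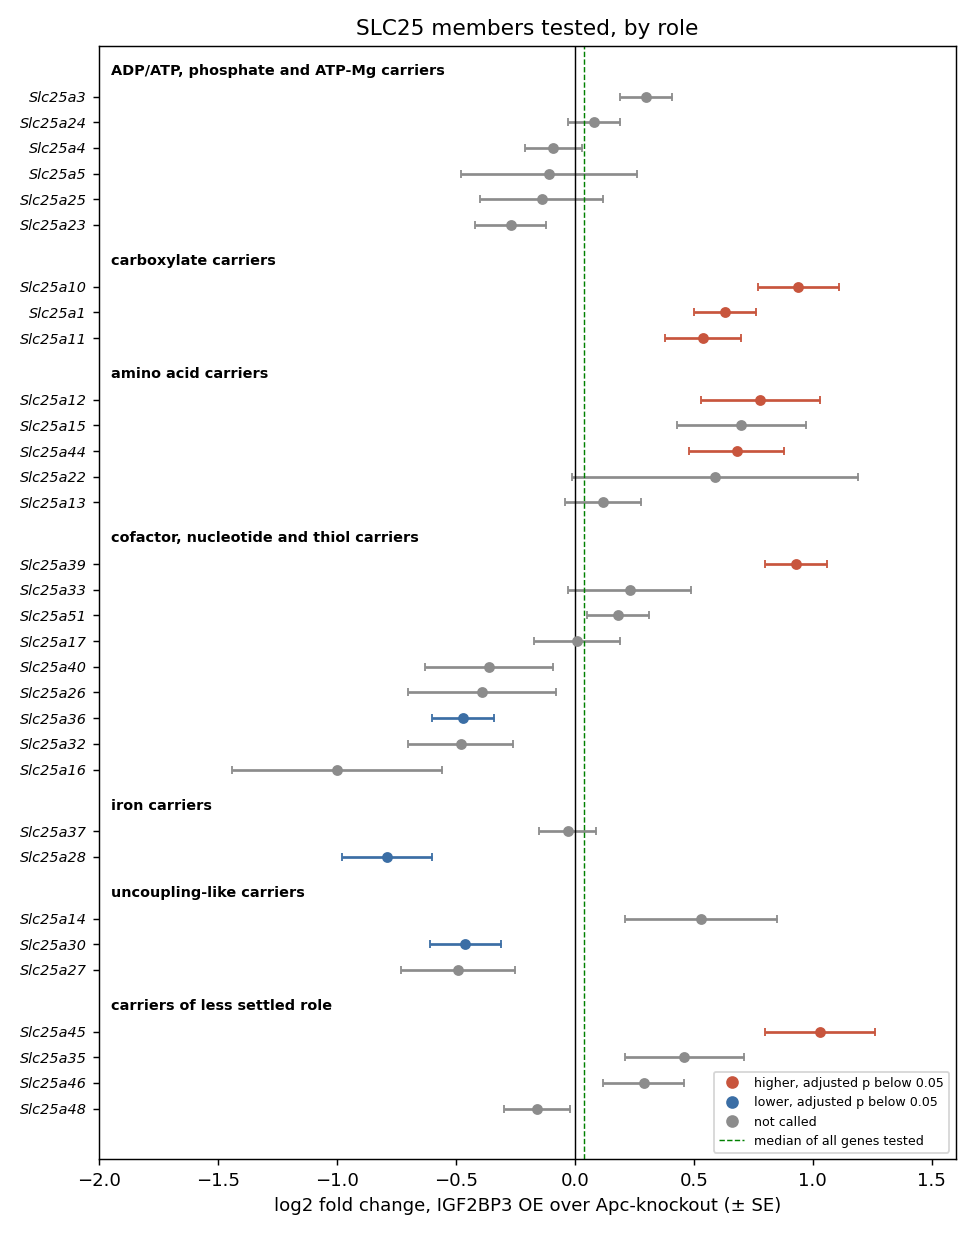
Log2 fold change of each tested carrier (x axis, OE-labelled over Apc-knockout, points with 1 SE on each side), grouped by role. The 3 carboxylate carriers all lie to the right, between 0.54 and 0.94, while no carrier of the ADP/ATP, phosphate and ATP-Mg group passed the threshold. Over all tested genes 29.2% passed it.

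The 10 carriers that changed are spread over the genome and over the roles of the family. The carriers that rose were Slc25a1, Slc25a10, Slc25a11, Slc25a12, Slc25a39, Slc25a44 and Slc25a45, and those that fell were Slc25a28, Slc25a30 and Slc25a36. In each of the 10 the libraries of the groups were fully separated. Their transcripts differed in base composition: the median GC content of the longest annotated transcript was 54.2% for carriers that rose (46.6% to 60.6%), 45.4% for those that fell (40.7% to 53.5%) and 48.3% for carriers that were not called. Over all tested genes the median was 49.7%. Slc25a1, Slc25a10, Slc25a39 and Slc25a45 passed the threshold in all 20 alternative settings, and an offset for GC content lowered their log2 fold changes to 0.39, 0.70, 0.69 and 0.84. The changes of Slc25a11, Slc25a30, Slc25a36 and Slc25a44 also shrank under this offset. Those of Slc25a12 (0.78 to 0.90) and Slc25a28 (-0.79 to -0.95) grew.

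**Figure D2:**
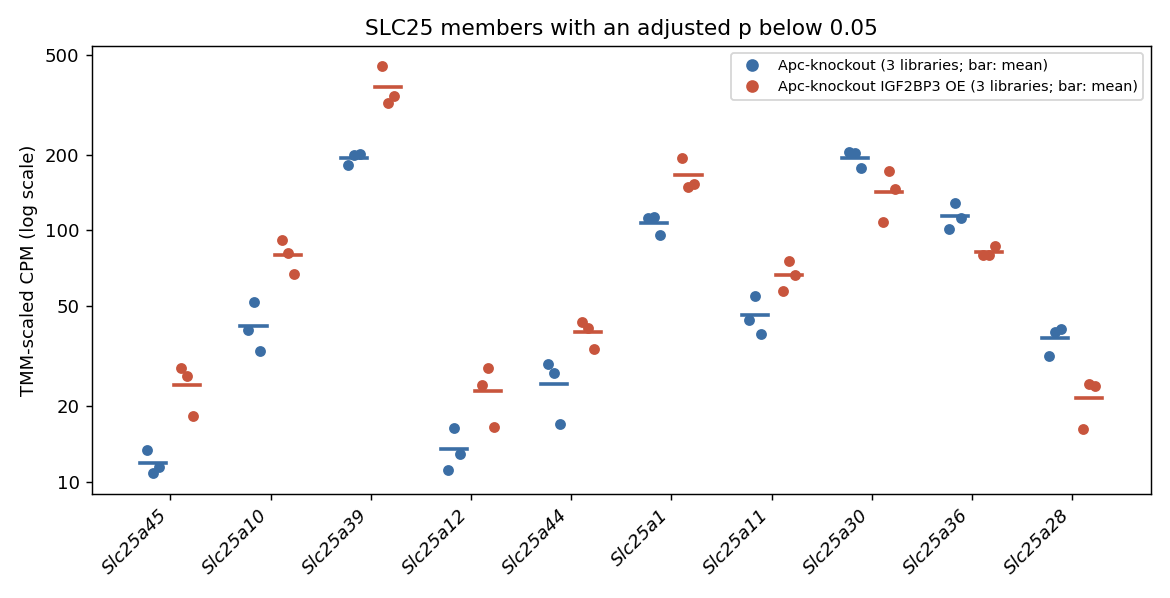
TMM-scaled CPM per library (log axis) of the 10 carriers with an adjusted p below 0.05, ordered by fold change, with 3 points per group and a bar at the mean. In each carrier the 3 OE-labelled points lie wholly above or wholly below the 3 Apc-knockout points; for Slc25a12 the gap is 16.4 against 16.5 CPM.

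Promoter windows from RefSeq (GRCm38.p6) were found for 35 of the 45 carriers, in 45 windows, and the 250 bases before each start were searched on both strands. The GC box GGGCGG, which Sp-family factors bind, was present in 68.9% of the carrier windows and in 32.7% of all 32851 windows of the same length. The E-box CACGTG, which MYC and related factors bind, was present in 17.8% of the carrier windows and in 6.02% of all windows. These shares count windows, not genes. Windows of one gene can overlap and share a site, as those of Slc25a14 share an E-box. The 45 windows include 13 of carriers that were not tested. Some longer motifs known from nuclear genes for mitochondrial proteins were also searched, and a longer motif matches less often by length alone. The GABPA motif CCGGAAG was found in 11.1% of carrier windows (6.91% of all). The NRF1 motif GCATGCGC was found in 4.44% (2.26%) and the ERR motif AAGGTCA in 2.22% (4.08%). The NRF1 matches lay only in windows of Slc25a31 and Slc25a54, which were at 0 counts in all libraries. The ERR match lay in that of Slc25a34, which was too low to test. None of these 5 motifs contains another. Median GC content was 57.6% in carrier windows and 52.4% in all windows; its part in these shares was not tested. Windows were found for 9 of the 10 carriers that changed, and for 4 of them no annotated exon overlaps the window. These are printed below so that carriers that rose and fell can be set side by side, with matches to any of the 5 motifs in capitals. Slc25a1 and Slc25a12 rose; Slc25a28 and Slc25a30 fell. They lie at chr16:17928220-17928469, chr2:71367756-71368005, chr19:43674882-43675131 and chr14:75787038-75787287, all on the minus strand.
Slc25a1: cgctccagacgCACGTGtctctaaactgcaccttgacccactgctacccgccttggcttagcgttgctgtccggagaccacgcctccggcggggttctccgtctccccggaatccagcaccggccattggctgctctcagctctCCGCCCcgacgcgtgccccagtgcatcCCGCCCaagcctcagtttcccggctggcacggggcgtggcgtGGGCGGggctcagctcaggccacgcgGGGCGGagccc
Slc25a12: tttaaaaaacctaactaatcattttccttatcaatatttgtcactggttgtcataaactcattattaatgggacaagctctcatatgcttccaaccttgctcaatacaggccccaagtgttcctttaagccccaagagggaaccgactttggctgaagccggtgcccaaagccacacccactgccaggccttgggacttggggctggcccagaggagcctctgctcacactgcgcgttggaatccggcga
Slc25a28: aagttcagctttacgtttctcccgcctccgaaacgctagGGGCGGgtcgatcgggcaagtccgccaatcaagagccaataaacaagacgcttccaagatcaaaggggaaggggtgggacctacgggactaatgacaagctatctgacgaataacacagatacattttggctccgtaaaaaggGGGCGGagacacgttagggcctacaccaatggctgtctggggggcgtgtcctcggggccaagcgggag
Slc25a30: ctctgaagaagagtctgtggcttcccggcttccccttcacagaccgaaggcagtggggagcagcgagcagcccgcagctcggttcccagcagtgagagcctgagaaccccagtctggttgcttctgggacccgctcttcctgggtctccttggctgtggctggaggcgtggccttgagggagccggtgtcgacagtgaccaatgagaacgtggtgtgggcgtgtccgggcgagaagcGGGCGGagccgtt
The Slc25a1 window held an E-box starting 239 bases before the start and GC boxes at 106, 79, 37 and 11 bases before it. The Slc25a12 window held no match to any of the 5 motifs. GC boxes began 211 and 68 bases before the start of Slc25a28, and 13 bases before that of Slc25a30. GC boxes were thus present beside a carrier that rose and beside both carriers that fell. Over all windows of called carriers, 4 of 6 that rose and 3 of 3 that fell held a GC box. Among windows of carriers that rose, 1 of 6 held an E-box (Slc25a1), and among those of carriers that fell, 1 of 3 (Slc25a36).

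Carboxylate carriers exchange citrate, malate, succinate and oxoglutarate and so connect the citric acid cycle with fatty acid synthesis and with the malate-aspartate shuttle. By edgeR 3 of 3 tested members of this group rose, where 16.5% of all tested genes did, and by DESeq2 2 of 3. The fourth member, Slc25a21, had 0 counts in every library. Slc25a10, the dicarboxylate carrier (GRCm38 chromosome 11, 120491840 to 120499187, plus strand), stood at 40.1, 52.1 and 33.2 CPM in Apc-knockout and at 92.0, 81.0 and 67.2 CPM in OE-labelled libraries. The lowest OE-labelled value was above the highest Apc-knockout value. The rise was 1.92-fold (log2 fold change 0.94, SE 0.17, edgeR adjusted p = 0.00206). Slc25a1, which exports citrate for lipid synthesis (chromosome 16, 17925223 to 17928219, minus strand), stood at 112, 113 and 95.8 CPM against 195, 149 and 153 CPM. OE-labelled replicate 1 was the highest of the 6, and the groups did not overlap. Slc25a1 rose 1.55-fold (log2 fold change 0.63, SE 0.13, edgeR adjusted p = 0.00388). Slc25a11, the oxoglutarate-malate carrier of the shuttle (chromosome 11, 70644196 to 70647479, minus strand), stood at 44.2, 54.9 and 38.7 CPM against 57.5, 75.5 and 66.8 CPM. Its ranges came close, with 54.9 CPM as the highest Apc-knockout and 57.5 CPM as the lowest OE-labelled value. Slc25a11 rose 1.45-fold (log2 fold change 0.54, SE 0.16, edgeR adjusted p = 0.0245). Its call ended with DESeq2's test (adjusted p = 0.0739), under the GC offset (0.35, edgeR adjusted p = 0.132), under the exonic length offset (0.36, edgeR adjusted p = 0.116) and without Apc-knockout replicate 1, Apc-knockout replicate 3 or OE-labelled replicate 2 (adjusted p = 0.0962, 0.126 and 0.117). The genes Slc25a10 and Slc25a11 each overlap 1 annotated gene on the opposite strand, and the strand setting of the counting is not given in the sources used here.

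Of the amino acid carriers, 5 of 9 were tested, and 2 of these rose, where 16.5% of all tested genes did. Slc25a12 and Slc25a13 encode paralogous exchangers of aspartate and glutamate, the other arm of the malate-aspartate shuttle. Slc25a12 (chromosome 2, 71271063 to 71367749, minus strand) stood at 11.1, 16.4 and 12.9 CPM in Apc-knockout and at 24.3, 28.3 and 16.5 CPM in OE-labelled libraries. OE-labelled replicate 3 lay barely above the highest Apc-knockout library. The gene overlaps 1 annotated gene on the opposite strand. Slc25a12 rose 1.71-fold (log2 fold change 0.78, SE 0.25, edgeR adjusted p = 0.0325). This call ended with DESeq2's test (adjusted p = 0.0935) and without Apc-knockout replicate 1, Apc-knockout replicate 3 or OE-labelled replicate 2 (edgeR adjusted p = 0.132, 0.11 and 0.154). Slc25a13 stood at 41.9, 42.7 and 45.2 CPM against 46.6, 56.2 and 38.5 CPM. Its groups overlapped, and its log2 fold change of 0.12 had a 95% interval from -0.22 to 0.47 (edgeR adjusted p = 0.589). Slc25a44, which imports branched-chain amino acids (chromosome 3, 88410498 to 88425139, minus strand), stood at 29.5, 27.2 and 17 CPM against 43.3, 40.9 and 33.8 CPM. Apc-knockout replicate 3 was the lowest of the 6. Slc25a44 rose 1.6-fold (log2 fold change 0.68, SE 0.20, edgeR adjusted p = 0.0249). The call ended without Apc-knockout replicate 2 or 3 or OE-labelled replicate 2 (edgeR adjusted p = 0.056, 0.116 and 0.0918), with the GC offset (0.52, adjusted p = 0.074) and with DESeq2's test (adjusted p = 0.0645). The ornithine carrier Slc25a15 did not pass (log2 fold change 0.70, 95% interval 0.11 to 1.29, edgeR adjusted p = 0.0696) but did without OE-labelled replicate 3 (0.84, adjusted p = 0.0342). Slc25a22, a glutamate carrier, had only 3, 15 and 37 counts in OE-labelled libraries against 9, 12 and 11 counts, so its interval ran from -0.70 to 1.89. Slc25a29 and Slc25a38 were too low to test, with at most 16 counts in any library, and Slc25a2 and Slc25a18 were at 0.

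Carriers of cofactors, nucleotides and thiols went both ways: of 9 tested, 1 rose, 1 fell and 7 were not called. Over all tested genes 16.5% rose and 12.7% fell. Slc25a39 and Slc25a40 encode paralogous carriers that bring glutathione into mitochondria. Slc25a39 (chromosome 11, 102402985 to 102407946, minus strand) stood at 183, 199 and 202 CPM in Apc-knockout and at 450, 321 and 344 CPM in OE-labelled libraries. Every OE-labelled library lay above every Apc-knockout library, with replicate 1 the highest. Slc25a39 rose 1.91-fold (log2 fold change 0.93, SE 0.13, edgeR adjusted p = 0.000429), the smallest p among the carriers. Slc25a40 stood at 8.30, 13.6 and 11.1 CPM against 7.29, 9.83 and 8.46 CPM. Its groups overlapped, and its log2 fold change was -0.36 with a 95% interval from -0.95 to 0.23 (edgeR adjusted p = 0.337). Slc25a36, a pyrimidine nucleotide carrier (chromosome 9, 97074961 to 97111157, minus strand), stood at 101, 129 and 112 CPM against 80.2, 79.8 and 87.1 CPM. The 3 OE-labelled values lay close together and below all Apc-knockout values. Slc25a36 fell (log2 fold change -0.47, SE 0.13, edgeR adjusted p = 0.0141). Its value was -0.22 under the GC offset (edgeR adjusted p = 0.207) and -0.29 under the exonic length offset (adjusted p = 0.1). The call also ended without Apc-knockout replicate 2 or 3 (adjusted p = 0.0946 and 0.0546). The related carrier Slc25a33 was not called (0.23, 95% interval -0.33 to 0.79). The NAD carrier Slc25a51 was not called either (0.18, 95% interval -0.09 to 0.45). Slc25a32, Slc25a26 and Slc25a16, a carrier linked to coenzyme A, had log2 fold changes of -0.48, -0.39 and -1.0 and did not pass (edgeR adjusted p = 0.116, 0.359 and 0.107). Slc25a32 passed without OE-labelled replicate 2 (-0.72, edgeR adjusted p = 0.0497), and Slc25a16 without OE-labelled replicate 3 (-1.52, adjusted p = 0.029), with the replicate block (-0.99, adjusted p = 0.0356) and with no count filter (-1.03, adjusted p = 0.02). Slc25a36 overlaps 1 annotated gene on the opposite strand, and Slc25a39 overlaps a microRNA gene on its own strand.

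The iron carriers mitoferrin-1 (Slc25a37) and mitoferrin-2 (Slc25a28) supply iron for heme and iron-sulfur cluster synthesis. Slc25a28 (chromosome 19, 43663801 to 43674881, minus strand) stood at 31.8, 39.4 and 40.5 CPM in Apc-knockout and at 16.2, 24.4 and 24.1 CPM in OE-labelled libraries. The highest OE-labelled value was below the lowest Apc-knockout value. Slc25a28 fell (log2 fold change -0.79, SE 0.19, edgeR adjusted p = 0.00963). Of the 20 alternatives, the call ended in the one without Apc-knockout replicate 3 (-0.72, edgeR adjusted p = 0.0542). Slc25a37 stood at 80.7, 91.5 and 85.2 CPM against 83.5, 86.1 and 82.9 CPM. Its groups overlapped, and its log2 fold change of -0.03 had a 95% interval from -0.28 to 0.22 (edgeR adjusted p = 0.881).

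The uncoupling-like carriers are related in sequence to the uncoupling proteins, and their substrates are less well settled. Slc25a30 (chromosome 14, 75760117 to 75787037, minus strand) stood at 205, 203 and 178 CPM in Apc-knockout and at 108, 173 and 146 CPM in OE-labelled libraries. OE-labelled replicate 2, at 173 CPM, lay close to Apc-knockout replicate 3, at 178 CPM. Slc25a30 fell (log2 fold change -0.46, SE 0.15, edgeR adjusted p = 0.039). This call ended with library totals in place of TMM (-0.41, edgeR adjusted p = 0.064), under the GC offset (-0.29, adjusted p = 0.164) and without Apc-knockout replicate 1, 2 or 3 (adjusted p = 0.136, 0.134 and 0.0725). Slc25a27 had a log2 fold change of -0.49 and Slc25a14 of 0.53, and neither passed (edgeR adjusted p = 0.14 and 0.232). Among carriers of less settled role, Slc25a45 (chromosome 19, 5877808 to 5885878, plus strand) stood at 13.4, 10.8 and 11.5 CPM against 28.4, 26.3 and 18.2 CPM. All OE-labelled values lay above the Apc-knockout values. Slc25a45 rose 2.04-fold (log2 fold change 1.03, SE 0.23, edgeR adjusted p = 0.00572), the highest fold change of the tested carriers. Slc25a35, Slc25a46, a protein of the outer membrane with a part in mitochondrial shape, and Slc25a48 were not called (log2 fold changes 0.46, 0.29 and -0.16). Under the GC offset Slc25a46 passed (0.55, edgeR adjusted p = 0.0429).

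**Figure D3:**
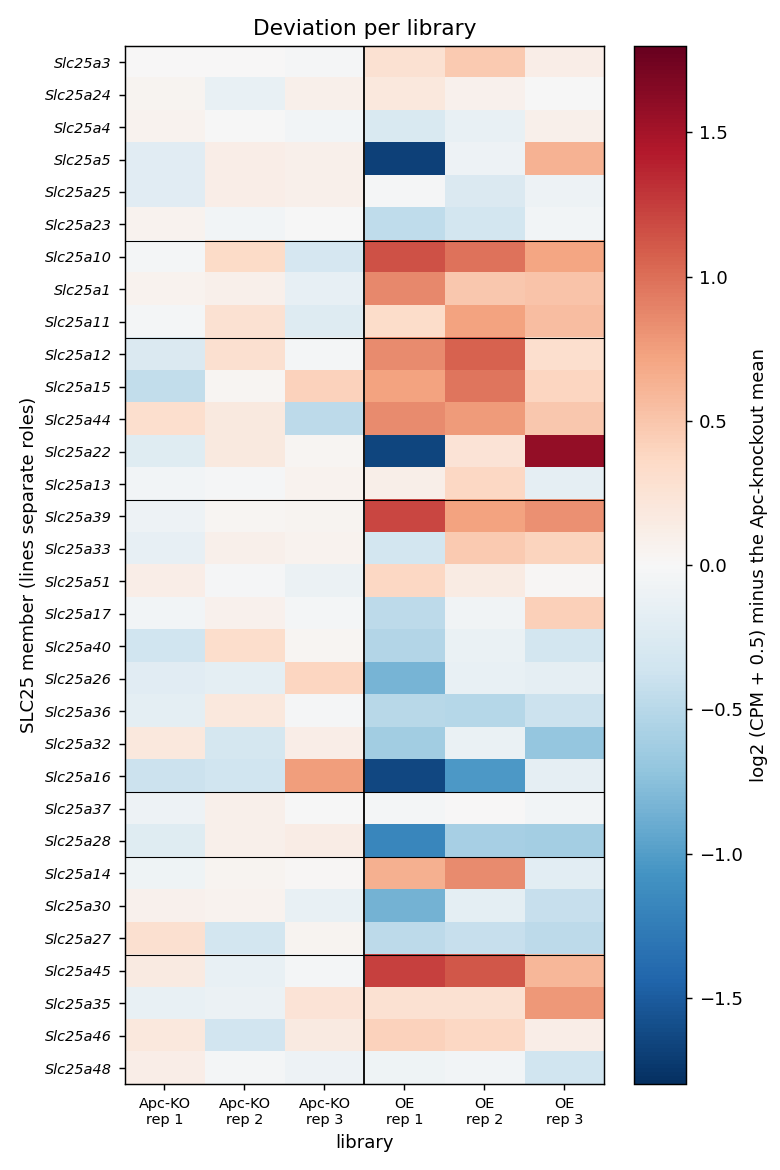
Deviation of each tested carrier in each library from the Apc-knockout mean (colour, log2 of CPM + 0.5), with carriers in rows and libraries in columns. Slc25a10, Slc25a1, Slc25a39 and Slc25a45 are red in all 3 OE-labelled columns, whereas Slc25a5 and Slc25a22 turn from blue in OE-labelled replicate 1 to red in replicate 3.

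The ADP/ATP, phosphate and ATP-Mg carriers serve ATP production itself and include Slc25a3, the member with the highest mean CPM. Of 6 tested, 0 were called by edgeR, DESeq2 or limma-voom in their main settings, and 1 (Slc25a3) had an unadjusted p below 0.05. Over all tested genes edgeR called 29.2%, and whether this small group differs from that share was not tested. Slc25a3, the phosphate carrier, stood at 441, 442 and 434 CPM in Apc-knockout and 533, 609 and 477 CPM in OE-labelled libraries. The groups did not overlap. Its log2 fold change of 0.30 (SE 0.11, 95% interval 0.07 to 0.53) just missed the threshold (edgeR adjusted p = 0.0528). It passed with library totals (0.35, edgeR adjusted p = 0.0253), with the GC offset (0.50, adjusted p = 0.00718), with the exonic length offset (0.34, adjusted p = 0.0297), without OE-labelled replicate 3 (0.38, adjusted p = 0.00672) and by limma-voom with a variance per group (0.29, adjusted p = 0.0274). Without OE-labelled replicate 2 its value was 0.18 (edgeR adjusted p = 0.276), and DESeq2 gave an adjusted p of 0.155. Slc25a4 encodes an ADP/ATP carrier. It stood at 212, 203 and 197 CPM against 169, 187 and 219 CPM, with overlapping groups (log2 fold change -0.09, 95% interval -0.34 to 0.16). Slc25a24, a calcium-regulated carrier of ATP-Mg, stood at 169, 148 and 173 CPM against 186, 171 and 162 CPM, also with overlap (0.08, 95% interval -0.16 to 0.33). Slc25a23 and Slc25a25, of the same ATP-Mg type, had log2 fold changes of -0.27 and -0.14 and did not pass. Under the GC offset Slc25a23 passed (-0.49, edgeR adjusted p = 0.0421). Slc25a31, Slc25a41 and Slc25a54 had 0 counts in all libraries.

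Slc25a5, the other tested ADP/ATP carrier, is singled out after its values were seen. It stood at 95.9, 119 and 117 CPM in Apc-knockout libraries and at 34.0, 103 and 171 CPM in OE-labelled libraries. OE-labelled replicate 1 was the lowest and OE-labelled replicate 3 the highest of all 6, so the spread within the group covered both sides of the other group. The coefficient of variation of CPM was 66.6% in OE-labelled and 11.6% in Apc-knockout libraries. Over the 32 carriers its median was 17% and 12.1%, and over all tested genes 15.9% and 10.5%. Slc25a22 (97.0% in OE-labelled libraries) and Slc25a17, a carrier of peroxisomes (31.5%), also had their lowest value of all 6 in OE-labelled replicate 1 and their highest in OE-labelled replicate 3, as did Slc25a4 (169 and 219 CPM). Within the OE-labelled group alone, Slc25a16, Slc25a23 and Slc25a35 ran in the same order, whereas Slc25a10, Slc25a24 and Slc25a45, among others, ran in the reverse order. The log2 fold change of Slc25a5 was -0.11 with a 95% interval from -0.91 to 0.68 (edgeR adjusted p = 0.846), so that a rise or a fall by a factor of 1.5 lies within it. Near-identical copies of a gene can take or share its reads, and how such reads were counted is not given in the sources used here, so the level of Slc25a5 is uncertain.

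Ratios within pairs of related carriers cancel any single scaling factor of a library, but not a bias that depends on base composition. The members of a pair can differ in GC content, as Slc25a39 (59.7%) and Slc25a40 (39.4%) do. Its part in the ratios was not tested. They were computed per library as log2 of one CPM over the other and are given with no test. Slc25a39 over Slc25a40 was 4.17 ± 0.30 in Apc-knockout and 5.44 ± 0.47 in OE-labelled libraries (SD, n = 3). Slc25a28 over Slc25a37 was -1.21 ± 0.14 and -1.99 ± 0.33, in the same order. The groups did not overlap in either ratio. Slc25a12 over Slc25a13 was -1.70 ± 0.29 and -1.05 ± 0.15, also without overlap. Slc25a33 over Slc25a36 was -3.20 ± 0.09 and -2.55 ± 0.44, with the lowest OE-labelled value (-3.04) just above the highest Apc-knockout value (-3.12). Slc25a10 over Slc25a11, both of which rose, was -0.15 ± 0.07 and 0.26 ± 0.36, also without overlap. Slc25a4 over Slc25a5 was 0.89 ± 0.22 and 1.18 ± 1.02, with OE-labelled libraries from 0.36 to 2.32 on both sides of the Apc-knockout values. Slc25a23 over Slc25a24 was -1.85 ± 0.10 and -2.22 ± 0.30, with overlap. Each pair without overlap holds a called carrier whose own groups were already separated, so its ratio is not separate evidence. How often ratios of other gene pairs separate was not computed.

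**Figure D4:**
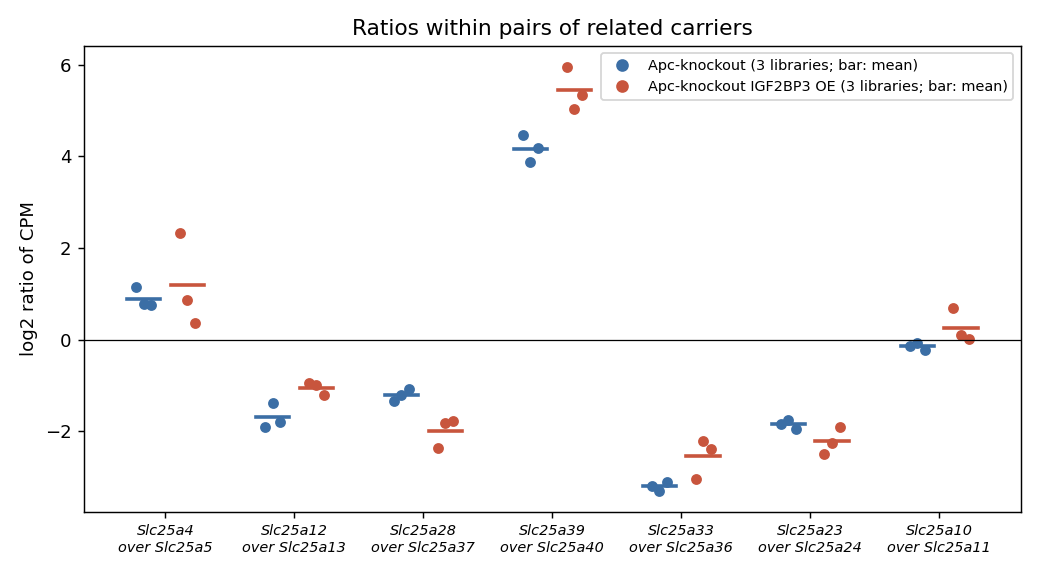
Log2 ratio of CPM within 7 pairs of related carriers, with 3 points per group and a bar at the mean. Slc25a39 over Slc25a40 and Slc25a12 over Slc25a13 are higher, and Slc25a28 over Slc25a37 lower, in all 3 OE-labelled libraries, whereas Slc25a4 over Slc25a5 spreads from 0.36 to 2.32.

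Of the 13 carriers that were not tested, 6 had 0 counts in all libraries (Slc25a2, Slc25a18, Slc25a21, Slc25a31, Slc25a41 and Slc25a54). A count of 0 allows up to 3 counts, which is 1.18 to 1.41 CPM depending on the library and covers counting error only. The other 7 (Slc25a29, Slc25a34, Slc25a38, Slc25a42, Slc25a43, Slc25a47 and Slc25a53) had between 0 and 16 counts per library, and no difference was detectable for them at this depth.

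Other mitochondrial transport genes were set beside the family: uncoupling proteins, outer membrane channels, pyruvate carriers, sideroflexins, calcium channel subunits and the import factors for carrier proteins. Of 32 listed genes, 31 were in the table and 27 were tested. By edgeR 6 rose and 0 fell (22.2% of those tested, against 29.2% of all tested genes called, 16.5% higher and 12.7% lower; at an unadjusted p below 0.05, 9 were higher and 2 lower), with 4 higher and 0 lower by DESeq2 and 6 higher and 0 lower by limma-voom. Their median log2 fold change was 0.18. Ucp2, an uncoupling protein of the same protein family whose symbol lies outside the rule, had 268, 261 and 295 counts in Apc-knockout and 866, 660 and 754 counts in OE-labelled libraries. Ucp2 rose 2.43-fold (log2 fold change 1.28, SE 0.13, edgeR adjusted p = 5.94e-05), where the highest tested carrier was at 1.03. Smdt1, a subunit of the calcium uniporter, rose by 0.94 (SE 0.12, edgeR adjusted p = 0.000222), and Vdac2, a pore of the outer membrane, by 0.41 (SE 0.09, edgeR adjusted p = 0.0070). Mtch1, an outer membrane protein of the same family, rose by 0.69 (SE 0.16, edgeR adjusted p = 0.00736). The mitochondrial rRNAs took 8.93% to 9.41% of the counts in Apc-knockout and 3.89% to 4.36% in OE-labelled libraries, and the mitochondrially encoded mRNAs 2.55% to 2.67% and 2.82% to 2.90%. Of these 13 mRNAs, 5 (mt-Co2, mt-Atp8, mt-Atp6, mt-Co3 and mt-Nd4l) were listed at 0 in every library although cells depend on them, so the share covers the other 8, and a listed 0 need not mean that a gene was not expressed. Without mitochondrially encoded genes and the ribosomal RNA gene CT010467.1, the same 10 carriers passed.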

How the data were processed

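Libraries of polyadenylated 3′ ends were made with the QuantSeq FWD kit from column-purified total RNA, per the labels' protocols. The authors deposited estimated counts per gene, of which 3.09% of the values above 0 were fractional. STAR, HTSeq and the builds mm10 and GRCm38 are named in the submitters' processing notes; strand and multi-mapping settings are not given in the sources used here. None of the 45 members had a fractional count, and counts were rounded before any test.

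Genes were kept by filterByExpr, scaled by TMM and compared in edgeR 4.0.16 (R 4.3.3) by its quasi-likelihood test, without covariates over all 6 libraries, with Benjamini-Hochberg adjustment across all genes tested. Columns were matched to samples by library name, and groups and replicate numbers came from the sample titles. A standard error is the log2 fold change divided by the square root of F. Positions, GC content and exonic length come from GENCODE M21 (GRCm38), promoter sequences from RefSeq. Alternatives used DESeq2 1.42.0, limma 3.58.1 and loess offsets (span 0.5). The fit was tested on simulated counts.

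Members, role groups and lists were chosen with earlier results of these data known. By the naming rule, called members and the 6 with the highest mean CPM are given by library, with up to 4 called genes of the transport list; the pair partners Slc25a13, Slc25a37 and Slc25a40 and the members Slc25a5, Slc25a17 and Slc25a22 were added after their values were seen. 2 symbols that match the pattern are not reported here.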

Additional observations from a re-analysis of the deposited data

How the results depend on the processing

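The 10 called carriers kept their direction in all 19 alternatives that refit the data. Their groups were fully separated, so leaving out 1 library could hardly reverse a direction. They kept their call in 167 of 200 values over the 19 alternatives and the stricter threshold. Slc25a1, Slc25a10, Slc25a39 and Slc25a45 kept it throughout. Leaving out 1 library at a time gave 4 to 13 called carriers (4 to 9 higher, 0 to 4 lower) and 1748 to 3532 called genes (1033 to 1959 higher, 715 to 1731 lower). As shares, 11.8% to 39.4% of the tested carriers and 15.9% to 32.6% of all tested genes were called. The 0 lower carriers arose without Apc-knockout replicate 3, where the edgeR adjusted p was 0.0542 for Slc25a28, 0.0546 for Slc25a36 and 0.0725 for Slc25a30. DESeq2's test called 7 carriers (21.9%), 4 of them higher, and 2096 genes (19.6%), 1059 higher and 1037 lower. At an adjusted p below 0.01, 5 carriers (4 higher, 1 lower) and 1578 genes (944 higher, 634 lower) passed, or 15.6% and 14.8% of those tested. The GC offset called 9 carriers (28.1%) and 2583 genes (24.2%). Of these carriers 6 were shared with the 10, and Slc25a3, Slc25a23 and Slc25a46 were gained. Slc25a24, not called in any setting, changed sign with the exonic length offset (-0.01) and without OE-labelled replicate 1 (-0.02, with 0.13 as the highest value without 1 library); the cause was not tested. Of all called genes, 56.6% were higher with TMM, 49.9% with the size factors of DESeq2 and 63.8% with library totals, and the log2 fold change over all genes had a median of 0.041, -0.003 and 0.089. The 10 carriers passed with those size factors; with library totals Slc25a30 was lost and Slc25a3 gained. With the replicate number as a block, 11 carriers passed, the 10 and Slc25a16. With the GC offset added to the block, 7 of the 10 passed. Slc25a11, Slc25a30 and Slc25a36 were lost, and the same 3 as under the GC offset alone were gained. Deviations of equally numbered libraries correlated at 0.10, 0.02 and 0.07, and those of unequally numbered libraries at -0.11 to 0.04. These values do not settle whether the numbers pair the libraries. The labels do not say that they do, so the block was kept as an alternative. A variance per group and unrounded counts, chosen after seeing the data, gave 11 and 10 carriers. The filter on low counts kept 13 carriers out of the test. Without it 39 were tested and 11 called (28.2%, against 17.3% of all genes then tested), again the 10 and Slc25a16.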
